A study of Homo sapiens with 16 samples.

Results

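Wnt pathway genes were examined in 16 RNA-seq libraries of HAP1, a near-haploid adherent human cell line derived from a chronic myeloid leukaemia. The genes were chosen by symbol alone: WNT ligands, frizzled receptors FZD1 to FZD9, secreted inhibitors of the SFRP and DKK families, and 15 named receptors, signalling genes, transcription factors and targets. This gave 51 genes of 33121 entries in the count table, and 36 of them passed the filter on low counts and were tested. SLC30A10, which encodes a manganese exporter, was deleted, in a series with a title on mitochondrial RNA granules and the toxicity of metals. There were 4 groups of 4 libraries: cells with the SLC30A10 deletion, their control cells wild type for SLC30A10, cells with a deletion of another gene (the second knockout), and control cells wild type for that gene (the second control set). The labels give a shared line identifier for the 2 control sets and another for each knockout, so each knockout is represented by a single engineered line. All cells grew in IMDM with serum, and no treatment is listed.

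Wnt proteins are secreted lipid-modified ligands that bind a frizzled receptor together with a co-receptor, LRP5 or LRP6 in the branch that acts through beta-catenin. Without ligand, a destruction complex built on APC and AXIN1 marks beta-catenin, the product of CTNNB1, for degradation. With ligand, beta-catenin accumulates and acts with TCF and LEF transcription factors on targets such as AXIN2 and NKD1, which feed back to limit the signal. SFRP and DKK proteins block the pathway outside the cell, and RNF43 and ZNRF3 remove frizzled receptors from the surface unless R-spondins, bound by LGR4 or LGR5, prevent it. Other ligands, WNT5A and WNT11 among them, are known mainly for signalling without beta-catenin.

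Each library held between 16058856 and 16648151 counts. Levels are given as CPM (counts per 1000000, after scaling of library sizes), and 3 counts equal 0.181 to 0.187 CPM. The labels do not say whether libraries of a group came from separate cultures, so the p-values measure only the spread between these libraries. SLC30A10 itself had 3 to 11 counts in its knockout and 6 to 9 counts in its control set, too few to check the deletion, and the group names follow the labels. The blood lineage markers PTPRC, CD33, SPI1, GATA1 and MPO had at most 3 counts in every library and CD34 at most 9, while GATA2 averaged 52.1 CPM. The 5 adherent and mesenchymal markers VIM, CDH2, FN1, COL1A1 and COL4A1 summed to between 516 and 528 CPM in the SLC30A10 knockout, between 909 and 959 in its control set, between 732 and 935 in the second knockout and between 615 and 776 in the second control set. Of the 4 of these that were tested, 3 were called lower in the SLC30A10 knockout and 2 were called higher in the second knockout. COL4A1 was at 0 or 1 counts. A call means an adjusted p under 0.05 by the edgeR test described below. Of all tested genes, 41.4% were called with the SLC30A10 knockout, against 13.7% with the second one. The marker counts here are to be set beside these shares. Of 5 epithelial markers, 3 were tested, with CDH1 at no more than 5 counts and KRT19 at 0. All 3 were called in the SLC30A10 knockout, with KRT8 (0.36 on the log2 scale) and KRT18 (0.26) higher and EPCAM (-2.18) lower. EPCAM was low there, at 0.263 CPM against 1.22 CPM in the control set. In the second knockout 2 were called, both lower, KRT8 (-1.35) and KRT18 (-0.22). All 3 neural markers, SOX2, PAX6 and NES, were called in both knockouts, 2 higher and 1 lower in the SLC30A10 knockout. In the second knockout 1 was higher, SOX2 at 0.36 on the log2 scale, and 2 were lower. The largest change in either knockout was that of NES in the second knockout, at -0.45. Of 5 pluripotent and germ cell markers, 4 were tested and 3 were called in the SLC30A10 knockout, 1 higher and 2 lower. In the second knockout 1 was called, LIN28A at -3.89, and the control sets differed 5.09-fold in LIN28A, with the second lower. The part of these marker shifts in the results on Wnt genes was not tested, and in bulk RNA fewer cells of a type cannot be told apart from less RNA per cell.

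HAP1 cells expressed all 11 listed receptors, but most ligands were low or not detected. Per kilobase of exon, the highest mean level over all libraries among the pathway genes was that of LGR4, the R-spondin receptor, at 56.3 CPM per kb, followed by CTNNB1 at 36.2 and the repressor-type factor TCF7L1 at 23.0. Receptors ranged from LRP6 at 15.9 CPM per kb down to FZD8 at 2.02. Of 19 ligands 11 passed, led by WNT5A at 5.44, WNT10B at 5.40 and WNT11 at 2.64 CPM per kb, then WNT5B at 1.33, and no other ligand exceeded 0.661 CPM per kb. Of 8 secreted inhibitors only SFRP1 and DKK3 passed, at 5.49 and 2.46 CPM per kb. Among feedback genes, ZNRF3 had 5.17, AXIN2 2.37, NKD1 1.21 and RNF43 0.0867 CPM per kb, and LGR5 did not pass.

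In the SLC30A10 knockout the largest fold changes were those of ligands, with a median absolute log2 fold change of 0.585 over 11 ligands and 0.119 over 11 receptors. Between the 2 control sets the same medians were 0.635 and 0.109. The ligand median in the SLC30A10 knockout is the value of WNT9A (-0.585 ± 0.372 SE), with 3 to 13 counts per knockout library. Several ligands had such low counts and large errors, so the medians of ligands and receptors come from unlike count levels. A gene was called where its adjusted p was under 0.05 (edgeR quasi-likelihood test, Benjamini-Hochberg over 15569 genes). By that rule 17 of 36 tested pathway genes (47.2%) were called, 9 higher and 8 lower, against 41.4% of all tested genes. Their median absolute log2 fold change was 0.218, against 0.165 over all tested genes. The second knockout had 9 of 36 (25.0%) called, 3 higher and 6 lower, against 13.7% of all tested genes, and none of those 9 reached an absolute log2 fold change of 0.58. Without second knockout replicate 2 the count was 4, against 9.99% of all genes tested in that fit. With all libraries, the median absolute log2 fold change of the pathway genes in the second knockout was 0.155, against 0.0939 over all tested genes. Of ligands, 6 of 11 were called in the SLC30A10 knockout and 0 of 11 in the second knockout, where 1 had an unadjusted p under 0.05 and DESeq2 also called 0.

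**Figure D1:**
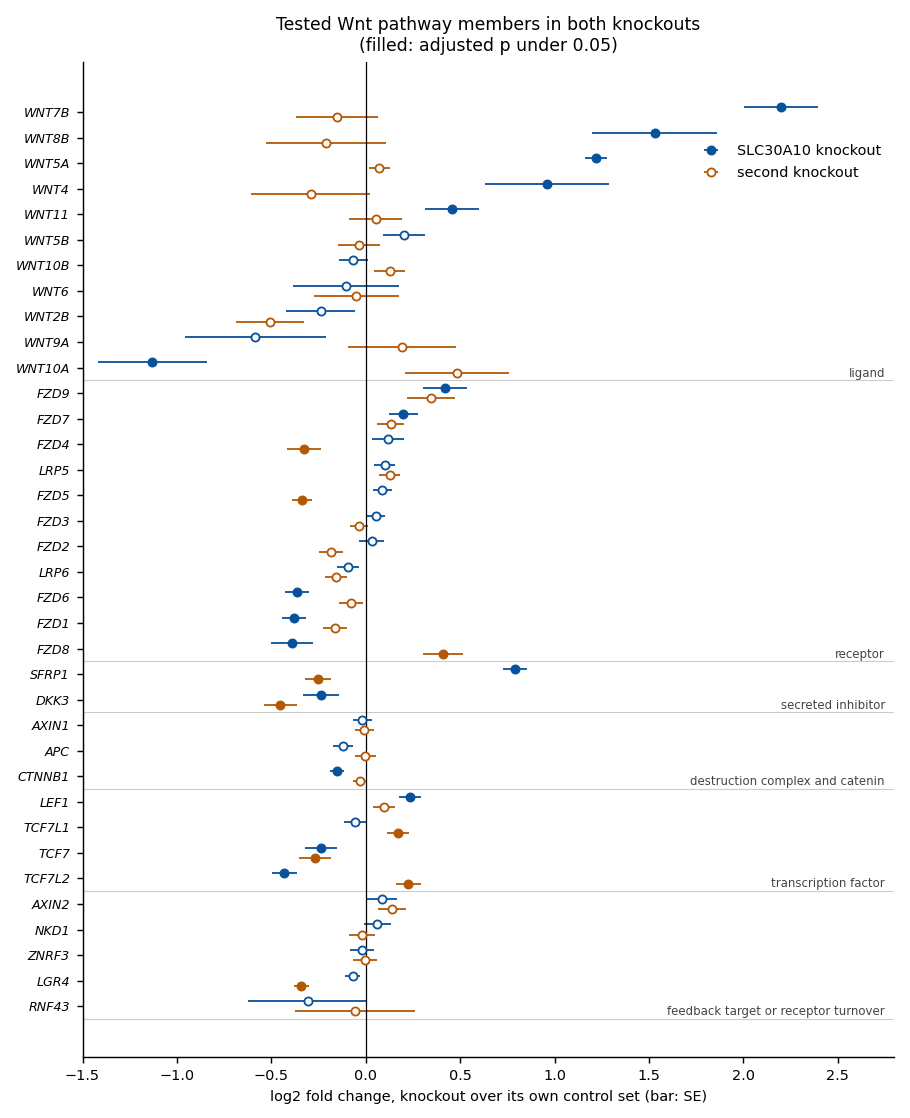
Log2 fold change of each tested Wnt pathway gene over its own control set (horizontal axis, points with SE bars), in the SLC30A10 knockout (blue) and the second knockout (orange), grouped by role; filled points had an adjusted p under 0.05. In the SLC30A10 knockout ligands span from -1.13 for WNT10A to 2.20 for WNT7B, while the feedback targets AXIN2, NKD1, ZNRF3 and RNF43 are open points in both knockouts.

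WNT5A, the ligand with the highest mean level over all libraries, lies on chromosome 3 (GRCh38, chr3:55465715-55505263, minus strand). Per kilobase of exon, WNT10B was higher than WNT5A in the SLC30A10 control set, at 6.21 against 3.34 CPM per kb. WNT5A measured 56.2, 57.1, 58.6 and 58.5 CPM in the SLC30A10 knockout and 24.5, 24.0, 23.0 and 27.4 CPM in its control set. It measured 36.7, 43.3, 40.7 and 40.7 CPM in the second knockout and 39.0, 37.4, 39.1 and 38.2 CPM in the second control set. Every SLC30A10 knockout library was above all 12 others, and the libraries of its control set were the lowest. The mean was 57.6 ± 1.13 CPM (SD, n = 4) against 24.7 ± 1.91 (SD, n = 4), a 2.33-fold rise (log2 fold change 1.22 ± 0.06 SE, edgeR adjusted p 1.97e-15). For the second knockout the log2 difference was 0.07 ± 0.06 (adjusted p 0.462).

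WNT7B, a ligand of kidney, lung and bone development that is known to act through beta-catenin in several tissues, had the largest fold change (chr22:45920366-45977162, minus strand). Its levels were 4.47, 4.29, 5.46 and 4.92 CPM in the SLC30A10 knockout and 0.914, 0.971, 1.22 and 1.04 CPM in its control set. They were 1.06, 1.23, 2.36 and 1.39 CPM in the second knockout and 1.96, 1.39, 1.57 and 1.82 CPM in the second control set. The SLC30A10 knockout libraries again stood above all others, with no overlap, and the second knockout overlapped its control set. WNT7B rose 4.6-fold in the SLC30A10 knockout (log2 fold change 2.20 ± 0.19 SE, edgeR adjusted p 6.26e-10), against a log2 difference of -0.15 ± 0.22 (adjusted p 0.716) in the second knockout.

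WNT8B and WNT4 were near the lower end of what was tested. WNT8B, best known from the developing forebrain (chr10:100463009-100483744, plus strand), measured 0.808, 1.12, 1.04 and 1.31 CPM in the SLC30A10 knockout and 0.548, 0.425, 0.061 and 0.427 CPM in its control set. The groups did not overlap, and the control library at 0.061 CPM was the lowest of all. Its log2 fold change was 1.53 ± 0.33 (SE, edgeR adjusted p 0.000563). The second knockout, at 0.748, 0.552, 0.606 and 0.666 CPM, lay within the range of the second control set, at 0.857, 0.546, 0.603 and 0.972 CPM.

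WNT4, a ligand of kidney and female reproductive tract development (chr1:22117313-22143097, minus strand), measured 0.932, 0.808, 0.613 and 0.996 CPM in the SLC30A10 knockout and 0.365, 0.607, 0.244 and 0.488 CPM in its control set. The lowest knockout library lay just above the highest control library. Its log2 fold change was 0.96 ± 0.33 (SE, edgeR adjusted p 0.0208), and the call was lost without SLC30A10 knockout replicate 1 or 4 or control replicate 1 or 3, with an adjusted p of up to 0.0756, and with DESeq2. Its values were 0.374, 0.675, 0.848 and 0.424 CPM in the second knockout and 0.612, 1.03, 0.603 and 0.608 CPM in the second control set, which overlapped. WNT8B reached 10 counts in 4 SLC30A10 knockout libraries and 0 of their controls, and WNT4 in 4 and 1, so both passed the filter partly through groups where they are high.

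WNT10A, a ligand of tooth and skin appendage development (chr2:218874116-218893928, plus strand), fell in the SLC30A10 knockout. It measured 0.559, 0.621, 0.307 and 0.498 CPM there and 1.40, 0.850, 1.04 and 1.1 CPM in the control set. It measured 1.25, 0.981, 1.09 and 0.605 CPM in the second knockout and 0.489, 0.788, 0.663 and 0.851 CPM in the second control set. WNT10A reached 10 counts in 1 SLC30A10 knockout library and in 4 of their controls, so it too passed the filter partly through groups where it is high. The SLC30A10 knockout and its control set did not overlap, whereas the second knockout and its control set did. The log2 fold change was -1.13 ± 0.29 (SE, edgeR adjusted p 0.00255) in the former and 0.48 ± 0.27 (adjusted p 0.277) in the latter.

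WNT11, known for cell movement in gastrulation, rose more modestly, from 5.23 ± 1.25 to 7.18 ± 1.29 CPM (SD, n = 4; log2 fold change 0.46 ± 0.14 SE, edgeR adjusted p 0.0119) with overlapping libraries. Its call was lost without replicate 3 of the SLC30A10 knockout or of its control set (adjusted p up to 0.0732). The other 5 tested ligands, WNT2B, WNT5B, WNT6, WNT9A and WNT10B, were called in neither knockout.

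**Figure D2:**
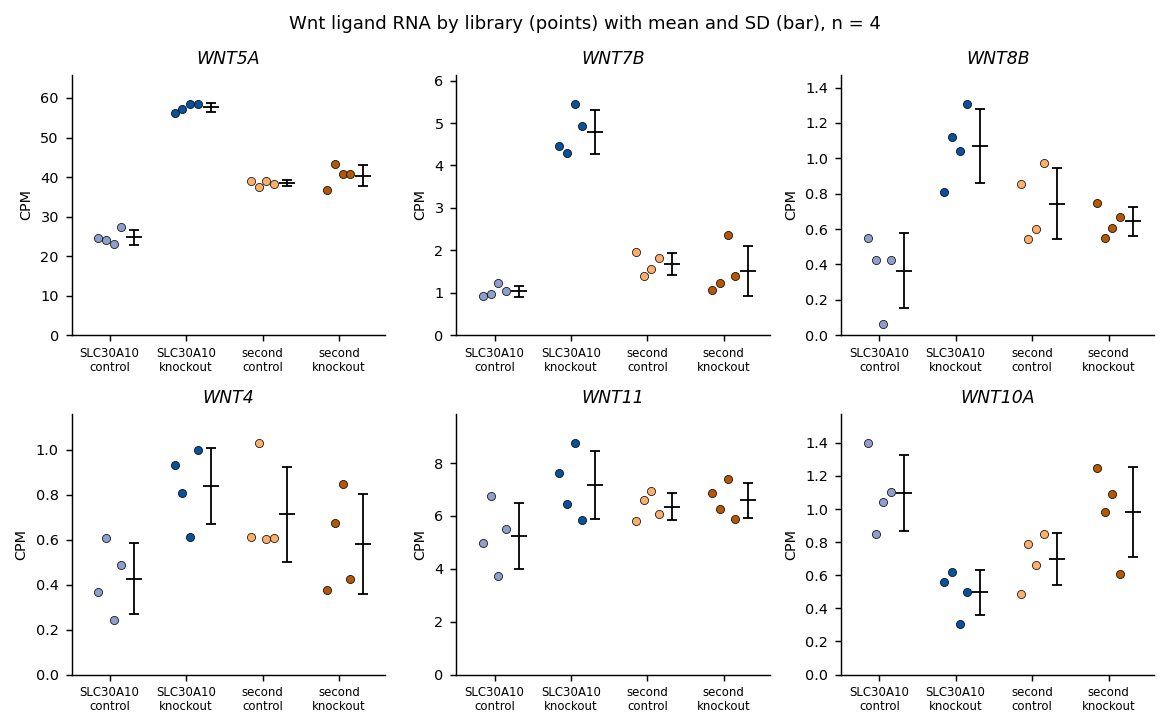
CPM (vertical axis, linear from 0) of the 6 ligands called in the SLC30A10 knockout, for each of the 4 libraries of the 4 groups (points), with mean and SD (bars). WNT5A and WNT7B lie higher in every SLC30A10 knockout library than in any other library, while for WNT4, WNT8B, WNT11 and WNT10A the SLC30A10 knockout overlaps the second control set.

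Among ligands that rose in the SLC30A10 knockout, WNT5A, WNT8B and WNT4 had a start with its upstream sequence in the RefSeq promoter table (GRCh38.p14). The 250 bases before the start are shown, 5′ to 3′ on the gene's strand. These 3 genes were called higher over the own control set although their upstream sequences differ in base composition. Against the second control set WNT8B and WNT4 were not called. Capitals mark CG dinucleotides. The WNT5A window, before an internal start, is chr3:55481399-55481648 (minus strand), that of WNT8B chr10:100462759-100463008 (plus strand) and that of WNT4 chr1:22143098-22143347 (minus strand). Another WNT5A window, chr3:55487307-55487556, overlaps an exon of the gene, holds 14 CG dinucleotides and is not shown.
WNT5A: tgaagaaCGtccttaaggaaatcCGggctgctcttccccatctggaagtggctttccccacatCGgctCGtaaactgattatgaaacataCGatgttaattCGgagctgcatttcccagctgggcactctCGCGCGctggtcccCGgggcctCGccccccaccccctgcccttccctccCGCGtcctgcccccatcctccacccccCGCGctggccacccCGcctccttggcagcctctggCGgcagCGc
WNT8B: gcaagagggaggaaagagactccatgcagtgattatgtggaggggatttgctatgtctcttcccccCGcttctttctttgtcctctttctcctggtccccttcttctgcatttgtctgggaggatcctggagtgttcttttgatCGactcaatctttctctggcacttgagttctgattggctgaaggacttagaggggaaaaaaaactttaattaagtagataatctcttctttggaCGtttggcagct
WNT4: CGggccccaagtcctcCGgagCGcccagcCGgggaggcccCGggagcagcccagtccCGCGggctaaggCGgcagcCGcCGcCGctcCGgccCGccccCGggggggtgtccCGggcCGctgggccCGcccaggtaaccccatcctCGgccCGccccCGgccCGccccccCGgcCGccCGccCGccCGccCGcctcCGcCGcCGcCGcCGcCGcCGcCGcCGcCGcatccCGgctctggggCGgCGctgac
They hold 18, 3 and 40 CG dinucleotides, against a median of 11 over 35116 windows. The TCF/LEF core motif, searched as CTTTGAT and CTTTGAA on both strands of the 300 bases from 250 before to 50 after a start, was in none of these 3. It was in 1 of 43 windows of 35 pathway genes (2.33%), a CTTTGAA 95 bases before the start of DKK1, and in 6.86% of all windows.

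Changes of FZD1 to FZD9, LRP5 and LRP6 were smaller and went both ways, whereas FZD10, which the symbol rule leaves out and which is described with the receptor partners, rose 3.82-fold in the SLC30A10 knockout. In the SLC30A10 knockout 5 of 11 receptors were called, with absolute log2 fold changes from 0.20 to 0.42. FZD1 fell from 26.6 ± 1.79 to 20.4 ± 0.75 CPM (SD, n = 4; log2 fold change -0.38 ± 0.07 SE, edgeR adjusted p 3.21e-05) and FZD6 from 34.4 ± 2.36 to 26.7 ± 1.98 CPM (-0.37 ± 0.06, adjusted p 3.34e-05), each without overlap. FZD9 rose by 0.42 ± 0.12 and FZD7 by 0.20 ± 0.08 on the log2 scale. The FZD7 call (adjusted p 0.0372) was lost in 7 of 8 fits that each left out 1 library, all but the one without control replicate 4.

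Of 11 receptors, 3 were called in the second knockout. FZD5 measured 40.1, 38.9, 40.1 and 39.1 CPM in that knockout and 48.9, 51.9, 47.5 and 51.6 CPM in its control set. It was lower in all 4 knockout libraries than in any other library of the study, with a log2 fold change of -0.34 ± 0.05 (SE, edgeR adjusted p 2.08e-05). FZD4 was lower by 0.33 ± 0.09 on the log2 scale (adjusted p 0.0127), with 1 knockout library at 23.2 CPM inside the control range and the others at 17.0 to 17.1. That call was lost without second knockout replicate 2 (adjusted p 0.0563). FZD8 rose in the second knockout, by 0.41 ± 0.11 (adjusted p 0.00881), and fell in the SLC30A10 knockout, by 0.39 ± 0.11 (adjusted p 0.0063). Co-receptors LRP5 and LRP6 and the receptors FZD2 and FZD3 were called in neither knockout.

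The 2 tested secreted inhibitors were called in both knockouts. SFRP1, which binds Wnt ligands in the extracellular space, measured 37.8, 38.0, 42.4 and 37.4 CPM in the SLC30A10 knockout and 21.8, 23.6, 21.2 and 23.4 CPM in its control set. It measured 19.2, 17.7, 22.0 and 19.8 CPM in the second knockout and 23.4, 23.3, 23.3 and 23.9 CPM in the second control set. The SLC30A10 knockout was above every other library, and the second knockout was below its own control set without overlap. SFRP1 rose 1.73-fold in the SLC30A10 knockout (log2 fold change 0.79 ± 0.06 SE, edgeR adjusted p 1.04e-10) and fell in the second knockout (-0.25 ± 0.07, adjusted p 0.011). The second of these calls was lost without second knockout replicate 2 (adjusted p 0.0716).

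DKK3, a divergent member of the dickkopf family, measured 8.33, 9.69, 11.0 and 8.84 CPM in the SLC30A10 knockout and 11.0, 11.5, 10.2 and 11.9 CPM in its control set. The second knockout had 10.9, 12.7, 13.1 and 12.5 CPM, and the second control set 17.0, 16.3, 15.2 and 18.9 CPM. The second control set was the highest group, and the second knockout libraries lay near those of the SLC30A10 control set. The log2 fold change was -0.24 ± 0.10 (SE, edgeR adjusted p 0.0492) in the SLC30A10 knockout, a call lost in 6 of 8 fits that left out 1 library (all but those without replicate 3 of either group; adjusted p up to 0.173), and with DESeq2. It was -0.45 ± 0.09 (adjusted p 0.000488) in the second knockout.

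**Figure D3:**
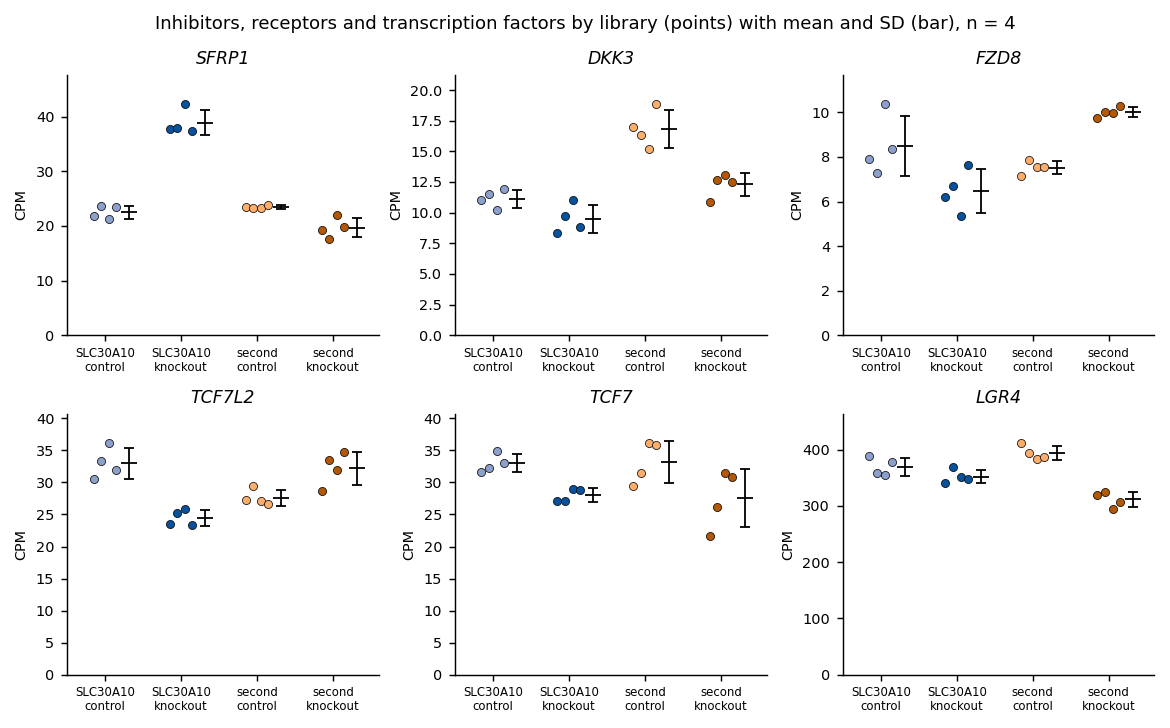
CPM (vertical axis, linear from 0) of SFRP1, DKK3, FZD8, TCF7L2, TCF7 and LGR4 in each library (points) with mean and SD of 4 (bars). SFRP1 is highest in the SLC30A10 knockout, at 38.9 ± 2.35 CPM, LGR4 is lowest in the second knockout, at 311 ± 13.7 CPM, and FZD8 and TCF7L2 lie lower in the SLC30A10 knockout and higher in the second knockout than in the respective control set.

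Inside the cell, the components of the destruction complex AXIN1 and APC were called in neither knockout. CTNNB1 measured 399, 388, 381 and 390 CPM in the SLC30A10 knockout and 423, 431, 446 and 431 CPM in its control set. All 4 knockout libraries were below every other library of the study, yet the change was small, 0.901-fold (log2 fold change -0.15 ± 0.04 SE, edgeR adjusted p 0.00129). For the second knockout the log2 difference was -0.03 ± 0.04 (adjusted p 0.627).

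All 4 TCF and LEF transcription factors passed the filter, and 3 were called in each knockout. TCF7L2 measured 23.5, 25.2, 25.8 and 23.3 CPM in the SLC30A10 knockout and 30.5, 33.4, 36.2 and 31.9 CPM in its control set. These libraries did not overlap, and the log2 fold change was -0.43 ± 0.07 (SE, edgeR adjusted p 8.07e-06). In the second knockout TCF7L2 was higher by 0.23 ± 0.07 (adjusted p 0.0201), with overlapping libraries, and 4 of 8 fits without 1 library lost the call. TCF7 fell in both knockouts, by 0.24 ± 0.08 (adjusted p 0.028) and 0.27 ± 0.08 (adjusted p 0.0335) on the log2 scale, but 3 of 8 and 4 of 8 fits without 1 library lost these calls, with adjusted p up to 0.0737 and 0.16. LEF1 rose in the SLC30A10 knockout from 19.3 ± 0.708 to 22.7 ± 0.937 CPM (SD, n = 4; log2 fold change 0.23 ± 0.06, adjusted p 0.00249). TCF7L1 was higher in the second knockout by 0.17 ± 0.06 (adjusted p 0.0425), a call that 4 of 8 such fits lost.

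Feedback targets were called in neither knockout against its own control set. AXIN2, whose transcription is widely used as a readout of beta-catenin signalling, measured 12.4, 11.6, 11.3 and 12.1 CPM in the SLC30A10 knockout and 11.7, 10.7, 10.8 and 11.5 CPM in its control set. It measured 13.1, 13.2, 14.5 and 14.8 CPM in the second knockout and 12.5, 12.4, 11.7 and 14.0 CPM in the second control set. The knockout libraries overlapped their control sets, with log2 differences of 0.09 ± 0.08 (SE, edgeR adjusted p 0.416) and 0.14 ± 0.08 (adjusted p 0.253). NKD1, an inhibitor of Dishevelled, had log2 differences of 0.06 ± 0.07 and -0.02 ± 0.07, and ZNRF3, a ubiquitin ligase that removes frizzled receptors, -0.02 ± 0.06 and -0.0044 ± 0.065. RNF43, the related ligase, had 0.368 to 1.06 CPM over all 16 libraries, where only a large change was detectable.

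LGR4 was the exception in the group of feedback and receptor turnover genes. It measured 320, 324, 294 and 307 CPM in the second knockout and 412, 394, 384 and 387 CPM in its control set. The second knockout libraries were below every other library of the study, since the SLC30A10 knockout had 340 to 369 CPM and its control set 354 to 388 CPM. LGR4 fell by 0.34 ± 0.04 on the log2 scale (edgeR adjusted p 3.52e-07), against -0.07 ± 0.04 (adjusted p 0.174) in the SLC30A10 knockout.

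**Figure D4:**
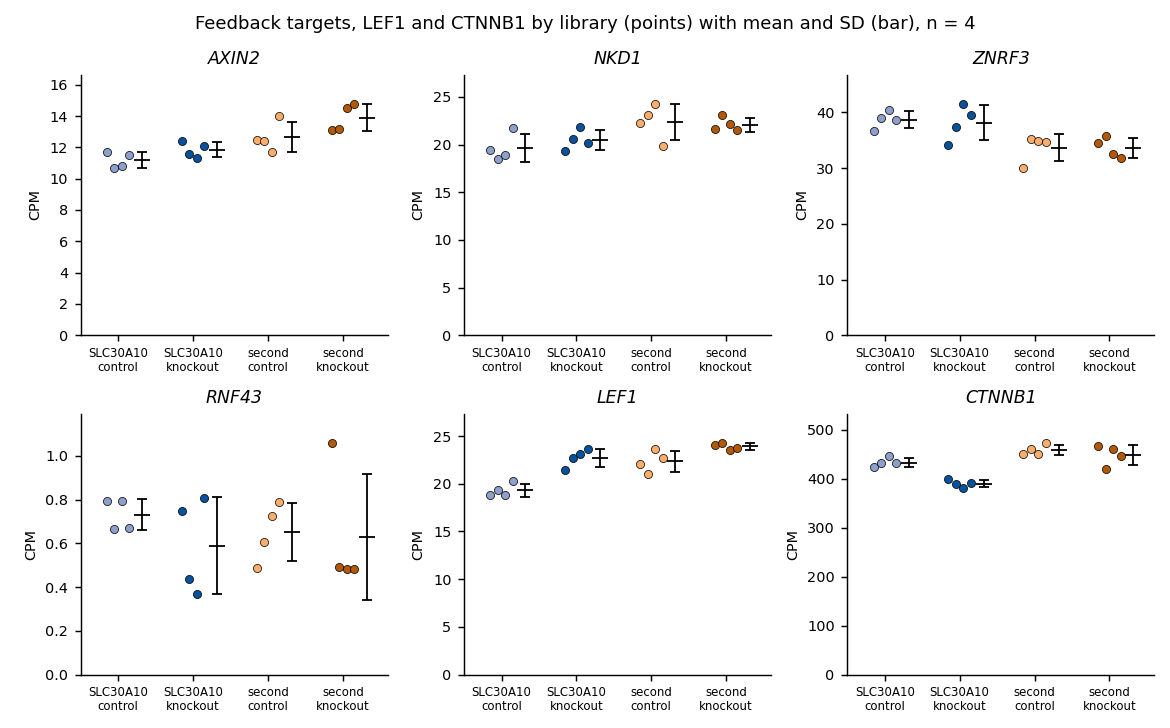
CPM (vertical axis, linear from 0) of the feedback genes AXIN2, NKD1, ZNRF3 and RNF43 and of LEF1 and CTNNB1 in each library (points) with mean and SD of 4 (bars). For the first 4 genes knockout and own control libraries overlap for both knockouts. CTNNB1 lies lower and LEF1 higher in the SLC30A10 knockout than in its own control set.

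Whether a gene's log2 fold change over the own control set differed between the 2 knockouts was tested as the difference between these fold changes. Each knockout is a single line with its own control set. Gaps between the control sets or lines therefore enter this difference and cannot be told apart from the deletions. For WNT4, WNT8B and WNT10A the log2 differences between the control sets were -0.73 ± 0.34, -1.01 ± 0.36 and 0.645 ± 0.267 (SE). The difference of the fold changes was called for 13 of 36 pathway genes (36.1%), against 31.3% of all tested genes. The ligands WNT7B (2.35 ± 0.30 SE, edgeR adjusted p 6.49e-07), WNT8B (1.74 ± 0.47, adjusted p 0.00502), WNT4 (1.25 ± 0.46, adjusted p 0.0382) and WNT5A (1.15 ± 0.08, adjusted p 1.37e-11) and the inhibitor SFRP1 (1.05 ± 0.09, adjusted p 1.34e-09) were higher in the SLC30A10 contrast by at least 1. WNT10A was lower by 1.62 ± 0.40 (adjusted p 0.00265). FZD8 and TCF7L2, which changed in opposite directions in the knockouts, differed by -0.80 ± 0.15 and -0.66 ± 0.09. The other 5, with absolute differences from 0.228 to 0.445, were FZD4, FZD5, FZD6, LGR4 and TCF7L1. No difference was called for AXIN2, at -0.05 ± 0.11 (adjusted p 0.744). The WNT4 call was lost in 8 of 16 fits without 1 library, with adjusted p up to 0.111, and that of TCF7L1 in 6 of 16, with adjusted p up to 0.0842.

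The control sets, which share a cell line identifier, also differed. Between the SLC30A10 control set and the second control set, 12 of 36 pathway genes (33.3%) were called, 4 higher and 8 lower in the former, against 39.3% of all tested genes. WNT5A was lower in the SLC30A10 control set by 0.64 ± 0.06 on the log2 scale (SE, edgeR adjusted p 1.75e-08), WNT7B by 0.70 ± 0.24 (adjusted p 0.02) and WNT8B by 1.01 ± 0.36 (adjusted p 0.0272). DKK3 was lower by 0.59 ± 0.09 (adjusted p 1.01e-05) and FZD7 by 0.52 ± 0.07 (adjusted p 5.86e-06), while WNT10B was higher by 0.46 ± 0.08 (adjusted p 6.48e-05). The WNT7B call was lost in 4 of 8 fits without 1 library and that of WNT8B in 3 of 8. The possible sources of difference between these control sets cannot be told apart.

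WNT6, a ligand active in epithelia, was called, of these 4 comparisons, only between the control sets (chr2:218859805-218874233, plus strand). It measured 0.731, 1.27, 0.732 and 0.793 CPM in the SLC30A10 control set and 0.857, 1.58, 1.45 and 1.82 CPM in the second control set. The SLC30A10 knockout had 0.994, 0.808, 0.797 and 0.685 CPM and the second knockout 1.25, 1.29, 1.70 and 1.27 CPM. Libraries of the SLC30A10 knockout and its control set were thus mostly lower than those of the second knockout and its control set. The control sets overlapped in part. The log2 difference between control sets was -0.69 ± 0.25 (SE, edgeR adjusted p 0.0284), a call lost in 6 of 8 fits without 1 library (all but those without SLC30A10 control replicate 2 or second control replicate 1; adjusted p up to 0.116), and with DESeq2.

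Since the control sets differed, each knockout was also set against the other control set. In the SLC30A10 knockout 16 pathway genes were then called, beside 44.3% of all tested genes. Of the 17 calls in the SLC30A10 knockout, 10 kept call and direction: CTNNB1, DKK3, FZD1, FZD6, FZD9, SFRP1, TCF7, TCF7L2, WNT5A and WNT7B. For 8 of them, that is all but DKK3 and FZD9, the knockout libraries lay outside the range of all 8 control libraries. The shares of all tested genes that kept their call or lay outside all 8 are not given here. With the own control set alone, 13 of 36 pathway genes and 38.3% of all tested genes did not overlap. WNT5A was then higher by 0.58 ± 0.06 on the log2 scale, against 1.22 with its own control set, WNT7B by 1.5 ± 0.18 and SFRP1 by 0.73 ± 0.06. WNT4, WNT8B, WNT11, WNT10A, LEF1 and FZD8 lost the call, with adjusted p from 0.127 to 0.792, and FZD7 reversed to -0.32 ± 0.07 (adjusted p 0.000789). Among feedback and receptor turnover genes, ZNRF3 was called higher, at 0.178 ± 0.064 (edgeR adjusted p 0.0255), and LGR4 lower, at -0.163 ± 0.0401 (adjusted p 0.00172). AXIN2, NKD1 and RNF43 were not called in the SLC30A10 knockout against either control set. Of the 9 calls in the second knockout, FZD4, FZD5, LGR4, SFRP1, TCF7 and TCF7L1 were kept, and FZD5 and LGR4 lay outside all 8 control libraries. With the own control set alone, 8 of 36 pathway genes and 16.3% of all tested genes did not overlap in the second knockout. DKK3 (0.14 ± 0.09), TCF7L2 (-0.03 ± 0.06) and FZD8 (0.24 ± 0.10) were not called in the second knockout against the other control set. Against the SLC30A10 control set 19 pathway genes were called in the second knockout, beside 47.8% of all tested genes, and 13 of them were not called against its own control set. Among these 13, WNT5A was higher by 0.71 ± 0.06, FZD7 by 0.66 ± 0.07 and the feedback genes AXIN2 by 0.32 ± 0.08 (adjusted p 0.00134) and NKD1 by 0.17 ± 0.07, while ZNRF3 was lower by 0.20 ± 0.06. With the control sets pooled, AXIN2 was higher in the second knockout by 0.23 ± 0.07 (edgeR adjusted p 0.0376).

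**Figure D5:**
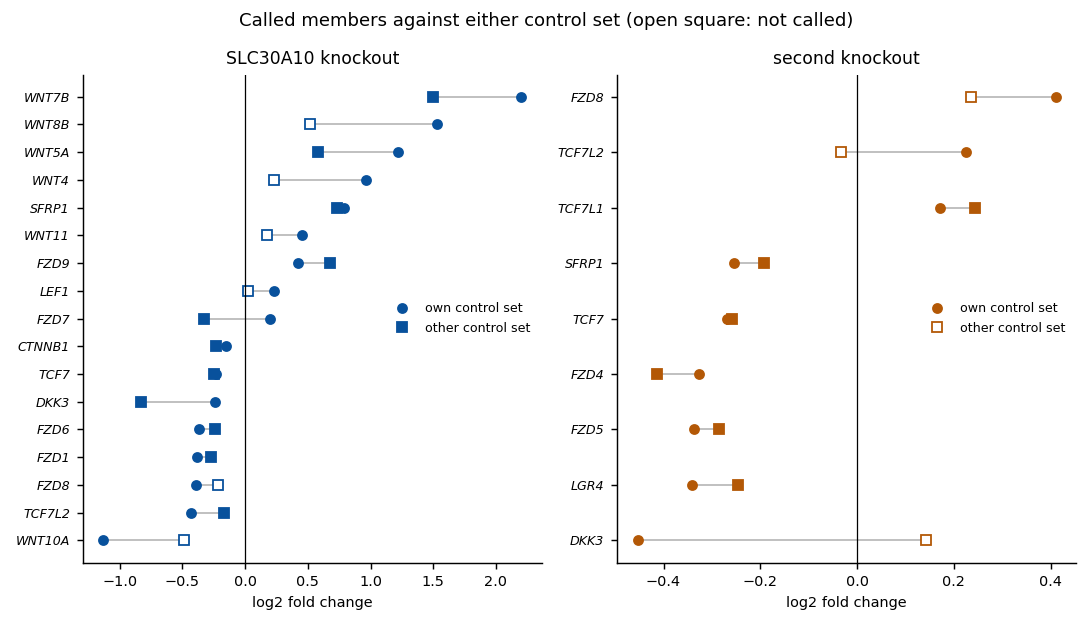
Log2 fold change (horizontal axis) of the genes called in the SLC30A10 knockout (left, 17 genes) and in the second knockout (right, 9 genes), against the own control set (circles) and the other control set (squares; open where not called). SFRP1 and TCF7 barely move in either panel, WNT5A moves from 1.22 to 0.58 in the left panel, and DKK3 moves from -0.45 to 0.14 in the right panel.

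Genes next to the pathway genes in the genome were also examined. Among the 10 tested genes on either side of each pathway gene, a median of 8 of 20 were called in the SLC30A10 contrast, near the 41.4% over all tested genes. Around TCF7L2 10 of 20 neighbours were called, all lower, with a median log2 fold change of -0.188. Around WNT2B 11 of 20 were called, all lower, and around WNT11 12 of 20, 10 of them higher. Around WNT5A 7 of 20 were called, 5 higher and 2 lower, with a median of 0.0544, and around WNT7B 9 of 20, with a median of 0.0577. The part of the neighbourhood in the changes of TCF7L2 and WNT11 was not tested. The use of strand in counting is not given, so reads of FZD4 and PRSS23, TCF7 and SKP1 or WNT2B and ST7L, whose exons overlap on opposite strands, could be shared.

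Other genes of the pathway were taken from lists by role, which, like the genes above, were chosen with earlier results of these data known. Of 116 listed genes, 94 were tested, and 54 were called in the SLC30A10 knockout, 29 higher and 25 lower, and 15 in the second knockout, 7 higher and 8 lower. All tested genes were called in 41.4% and 13.7% of cases, the shares to set beside these and the following counts. Of 7 tested genes of ligand secretion and extracellular control, 4 were called in the SLC30A10 knockout, 3 higher and 1 lower, with a median log2 fold change of -0.155. WLS, the carrier that brings Wnt proteins to the surface, fell from 123 ± 3.72 to 86.8 ± 2.33 CPM (SD, n = 4; log2 fold change -0.51 ± 0.04 SE, edgeR adjusted p 5.35e-11). PORCN, the acyltransferase that lipid-modifies Wnts, rose by 0.57 ± 0.07, and NOTUM, the deacylase that inactivates them, by 0.56 ± 0.07. Against the other control set NOTUM was lower, by 0.19 ± 0.07 (edgeR adjusted p 0.0208), and the rise of PORCN was 0.31 ± 0.07. Of 24 tested cytoplasmic signalling genes, 14 were called in that knockout, 11 higher and 3 lower. The median log2 fold change of the 24 was 0.0922, against -0.00479 over all tested genes. Between the control sets 11 of the 24 were called, and the median was -0.0978. The SLC30A10 set was the lower one for 8 of them and the higher one for 3. Against the other control set, the rises of DVL3, CSNK1G1, BTRC, DACT1, DACT3 and CTNNBIP1 and the fall of CSNK1G2 were not called. DVL1, GSK3A, CSNK1E, AMER1 and TNKS stayed higher, and TNKS2 and PPP2R5A stayed lower. TNKS, the tankyrase that promotes axin degradation, rose from 112 ± 8.36 to 214 ± 9.87 CPM (0.93 ± 0.06, adjusted p 2.92e-13; 0.55 ± 0.06 against the other control set), and AMER1, a scaffold of the destruction complex, rose by 0.52 ± 0.06.

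Of 16 nuclear cofactors, 11 were called in the SLC30A10 knockout (41.4% of all tested genes were), 3 higher and 8 lower, with a median log2 fold change of -0.095, and 0 in the second knockout (13.7% of all). TLE4, a Groucho-type corepressor that binds TCF factors, fell to 6.07 ± 0.187 from 14.3 ± 1.30 CPM (SD, n = 4; log2 fold change -1.24 ± 0.09 SE, edgeR adjusted p 1.09e-11). Of 24 other target genes, 13 were called in the SLC30A10 knockout, 7 higher and 6 lower, with a median of 0.0616. CCND1, a cyclin, rose by 0.74 ± 0.07 and CDX2, a homeobox factor, by 1.16 ± 0.11, while JUN fell by 1.09 ± 0.15 on the log2 scale. The second knockout had 7 of 24 target genes called, 4 higher and 3 lower, with a median of -0.0144, including CDX2 (0.75 ± 0.12) and MYC (0.43 ± 0.07) higher and CD44 (-2.36 ± 0.31) lower. Of 13 planar cell polarity genes 6 were called in the SLC30A10 knockout, 2 higher and 4 lower, with a median of -0.102, among them DAAM1 (-0.46 ± 0.05) and PRICKLE1 (-0.70 ± 0.11) lower and CELSR2 (0.37 ± 0.06) higher. Against the other control set CELSR2 was not called, at 0.02 ± 0.06 (edgeR adjusted p 0.797), and DAAM1 was at -0.99 ± 0.05. Of 10 receptor partners and co-receptors, 6 were called in the SLC30A10 knockout, 3 in each direction, and 4 in the second knockout. KREMEN1, a receptor for DKK proteins, rose in both, by 0.45 ± 0.05 and 0.31 ± 0.05 on the log2 scale, or 0.28 ± 0.05 and 0.48 ± 0.05 against the other control set. FZD10, a frizzled receptor that the symbol rule leaves out, rose 3.82-fold in the SLC30A10 knockout, from 3.67 ± 0.391 to 14.1 ± 1.63 CPM (SD, n = 4; adjusted p 2.46e-12). It had 0 counts in every library of the second knockout against 3.73 ± 0.439 CPM in its control set, at least 19.9-fold lower with 3 counts per library as the floor.

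Of the 15 pathway genes that did not pass the filter, 10 had at most 3 counts in every library, and DKK2 and WNT8A had 0 throughout. The other 5, DKK1, SFRP4, WNT1, WNT3 and WNT7A, reached at most 17 counts, the highest being WNT7A in the second knockout. Each was compared in each knockout by a two-sided exact permutation test of CPM, 10 tests in all, and the smallest p was 0.0571, or 0.285 after Benjamini-Hochberg adjustment. The smallest p that 4 against 4 libraries allow is 0.0286, so 1 gene alone could not pass 0.05 after adjustment over 10 tests, and these tests say little. A further entry for WNT3, a numbered copy in the count table that the symbol rule does not take and that was chosen after its values were seen, had 9.67 ± 0.463 CPM in the SLC30A10 knockout and 5.30 ± 0.498 in its control set (SD, n = 4; log2 fold change 0.87 ± 0.10 SE, edgeR adjusted p 1.4e-07). Against the second control set, at 10.2 ± 1.12 CPM, its log2 difference was -0.07 ± 0.09 (adjusted p 0.544). Another tested numbered copy of WNT3, at 0.882 ± 0.277 CPM in the SLC30A10 knockout and 0.669 ± 0.301 in its control set, was not called (0.395 ± 0.329 SE, edgeR adjusted p 0.357).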

How the data were processed

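Poly-A RNA of 16 libraries was sequenced in read pairs, per the labels' protocols. The authors deposited whole-number counts per gene symbol, and a table of normalized signal whose columns equal the counts times a constant per library, used here only as an alternative scaling. The submitters' processing notes name HISAT2, featureCounts, DESeq2 and GRCh38 (hg38), with no version or role; annotation and use of strand are not given in the sources used here. The gene deleted in the second knockout is not reported here.

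Counts were fitted with edgeR 4.0.16 in R 4.3.3, with the filter at a minimum count of 10 and total of 15, trimmed mean of M-values scaling, all 16 libraries in a single fit with a mean for each of 4 groups, and quasi-likelihood F tests. Numbered copies of a symbol (3103 entries) and 28 symbols turned into dates stayed separate entries. P-values were adjusted over 15569 genes by the Benjamini-Hochberg method, with a threshold of 0.05. Groups come from the genotype in the labels. Values are CPM with SD, and log2 fold changes with SE. Replicate libraries differed by more than sampling noise (chi-square per degree of freedom from 1.64 to 6.83), and none was merged. Limits from 3 counts cover counting error only.

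Positions and exon lengths are from the GENCODE annotation of GRCh38, and promoters from RefSeq. The pathway genes and the lists were chosen with earlier results of these data known. Genes with values in every library are those called with an absolute log2 fold change of at least 0.58 in a pairwise comparison or 1 for the difference. AXIN2, CTNNB1, FZD5, LGR4 and TCF7L2 fall outside that rule and were chosen after their values were seen. Of the listed pathway genes, at most 3 per list and knockout with the smallest adjusted p and a mean of at least 1 CPM were eligible to be named. Alternatives were DESeq2 1.42.0, other scalings, filters and thresholds, the replicate number as a block, pooled or exchanged control sets, and leaving out each library. Numbered copies summed was an alternative chosen after seeing the data.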

Additional observations from a re-analysis of the deposited data

Results flagged for a closer look

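The log2 fold change over the own control set differed between the SLC30A10 and the second knockout for 13 pathway genes. The edgeR test was that of the difference of log2 fold changes, with adjusted p under 0.05. Gaps between the control sets or between the lines enter it too. The difference was 2.35 for WNT7B (2.20 against -0.154), 1.74 for WNT8B (1.53 against -0.209), 1.25 for WNT4 (0.96 against -0.292), 1.15 for WNT5A (1.22 against 0.0712) and 1.05 for SFRP1 (0.791 against -0.254). It was 0.445 for FZD4 (0.119 against -0.326), 0.425 for FZD5 (0.0886 against -0.337) and 0.271 for LGR4 (-0.0693 against -0.341). It was -1.62 for WNT10A (-1.13 against 0.484), -0.801 for FZD8 (-0.391 against 0.41), -0.656 for TCF7L2 (-0.431 against 0.226), -0.287 for FZD6 (-0.365 against -0.0783) and -0.228 for TCF7L1 (-0.0573 against 0.171). The calls for WNT4 and TCF7L1 were lost in 8 and 6 of 16 fits that left out 1 library.

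In 12 of 144 groups of 4 libraries, 1 library stood apart from the other 3 by Dixon's criterion, where chance gives about 1 in 20, or 7.2. The first value given is the distance to the closest other library, divided by the range of the group. In the second knockout, FZD4 (0.984; 23.2 CPM in replicate 1) and RNF43 (0.989; 1.06 CPM in replicate 1), LRP5 (0.918; 102 CPM in replicate 2) and WNT6 (0.909; 1.70 CPM in replicate 3) had a high library, and WNT10B (0.857; 11.2 CPM in replicate 2) a low one. In the second control set, WNT4 (0.978; 1.03 CPM in replicate 2) and SFRP1 (0.836; 23.9 CPM in replicate 4) had a high library and ZNRF3 (0.877; 30.0 CPM in replicate 1) a low one. In the SLC30A10 knockout, replicate 3 was high for SFRP1 (0.878; 42.4 CPM) and TCF7L1 (0.877; 100.0 CPM). In the SLC30A10 control set, WNT6 was high in replicate 2 (0.887; 1.27 CPM) and FZD5 low in replicate 4 (0.838; 46.5 CPM).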

How the results depend on the processing

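Of the 51 calls of a pathway gene in a comparison, 27 kept direction and call in every alternative fit that tested the gene. The stricter thresholds given below are not among these fits. The filter at a mean count of at least 50 dropped some called genes, WNT7B among them, and a dropped gene did not count as changed. The exchanged and pooled control sets applied only to the calls of the 2 knockouts. Calls between the control sets and for the difference thus met fewer alternatives. With the control sets exchanged, 10 of 17 calls were kept in the SLC30A10 knockout and 6 of 9 in the second knockout. Against the other control set 19 genes were called in the second knockout, not 9, and FZD7 (SLC30A10 knockout, -0.324), DKK3 (second knockout, 0.142) and TCF7L2 (second knockout, -0.0328) reversed; FZD7 also reversed with the control sets pooled (-0.0862). The cause was not tested. A fold change of at least 1.5 left 6 genes in the SLC30A10 knockout, 0 in the second knockout, 5 between the control sets and 8 for the difference, and an adjusted p under 0.01 left 4 in the second knockout and 6 between the control sets; both are stricter by construction. Leaving out each library gave 13 to 17 genes in the SLC30A10 knockout, 4 to 9 in the second knockout (4 without second knockout replicate 2), 7 to 14 between the control sets (7 without second control replicate 1) and 11 to 14 for the difference. Deviations of libraries with the same number correlated from -0.103 to 0.116, so the numbers do not pair the libraries. With the replicate number as a block, 16, 11, 11 and 13 genes were called, in that order. Numbered copies summed, chosen after seeing the data, gave 18, 9, 13 and 14. Except where stated above, the shares of all tested genes under these alternatives are not given. No change in count is therefore read as particular to the pathway genes. Genes near or under 1 CPM, such as WNT4, WNT8B, WNT9A, WNT10A and RNF43, rest on few counts per library, which limits what could be detected.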
